A study of Mus musculus with 2 samples.

Results

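The cytosolic ribosomal protein genes code for the proteins of the ribosome that translates nuclear mRNAs, and they are described here in gastrocnemius, the large muscle of the mouse calf. A gene was taken as a member when it had a transcript of the class protein_coding in the annotation and a symbol of the Rpl, Rps, Rplp or Rpsa series. That gave 84 of 55536 genes, of which 52 belong to the large (60S) subunit and 32 to the small (40S) subunit. The choice used symbols and transcript classes alone and no measured value. The 7 members with paralog symbols (Rpl3l, Rpl10l, Rpl22l1, Rpl7l1, Rpl36al, Rpl39l and Rps27l) are treated beside their partner genes. Ribosomal proteins whose genes have other symbols, such as Fau and Rack1, lie outside the choice.

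The 2 total RNA libraries, each made from 300 ng of RNA, came from muscle of adult females 8 to 10 months of age. The labels give the strain as 5xFAD/CAST, a cross of the 5xFAD line, which carries mutated human transgenes under a neuronal promoter and serves as a model of Alzheimer's disease, with the wild-derived CAST strain. Both samples have this genotype, so the single group has no control. The labels number them as biological replicates 1 and 2 and give both 1 donor identifier, which does not settle whether they came from separate animals. Means are given with the SD over the n = 2 libraries, a spread that may be technical.

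A ribosome needs 1 copy of nearly every one of these proteins, and the stalk proteins Rplp1 and Rplp2 in more. Their mRNAs are short, abundant and known for a run of pyrimidines at the 5′ end, through which growth signals acting by mTOR and Larp1 control their translation. Skeletal and heart muscle are known for a paralog of the large-subunit protein Rpl3, Rpl3l, which takes the place of Rpl3 in part of the ribosomes of muscle fibres. Rpl3 lies near the peptidyl transferase centre, where peptide bonds form.

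Library 1 held 35594289 expected counts and library 2 held 34541905. Muscle fibre markers were abundant, with Acta1 at 16962 and 19000 TPM and Ckm at 14267 and 16994 TPM. TPM corrects a count for transcript length and scales it to the library. Where a pair of values is given, the first is library 1 and the other library 2. All 4 fibroblast, 4 endothelial, 3 Schwann cell and 3 adipocyte markers were also detected at TPM of at least 1 in both libraries, as were both erythroid and 3 of 4 macrophage markers. Myh6 was the only 1 of 4 cardiac markers detected, and 0 of 3 lymphocyte markers were. In bulk tissue, fewer cells of a type and less RNA per cell cannot be told apart, and the share of each member's RNA that came from muscle fibres was not tested.

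Of the 84 members, 82 were detected at TPM of at least 1 in both libraries, and the other 2, Rpl10l and Rpl39l, had no count in either. A count of 0 allows up to 3 counts, or 0.0843 and 0.0869 CPM, which is counts scaled to the total of all entries. The members held 4.27% and 3.94% of nuclear protein-coding TPM, which is 4.10 ± 0.231% (SD, n = 2). Their median level was 200 and 207 TPM, or 203 ± 5.45 TPM over the detected members. The median over the 9793 detected nuclear protein-coding genes was 7.95 ± 0.615 TPM. Ribosomal protein mRNAs thus stood among the abundant transcripts of the muscle, and their levels were less dispersed than those of other genes: the SD of log2 TPM was 1.09 ± 0.00493 over members and 1.90 ± 0.00452 over all detected nuclear protein-coding genes.

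Small-subunit and large-subunit genes stood at nearly the same level. The 32 detected 40S genes had a median of 203 and 210 TPM, and the 50 detected 60S genes had a median of 196 and 205 TPM. The log2 ratio of the 60S over the 40S median was -0.05 in library 1 and -0.03 in library 2. From the entries alone, with paralogs counted, the 40S genes ran from 76.6 (Rps23) to 464 TPM in library 1 and the 60S genes from 14.8 (the paralog Rpl7l1) to 598 TPM. These low values change with near-identical entries elsewhere in the genome: with those added, Rps23 was at 366 TPM in library 1 and Rpl5, the lowest 60S gene other than Rpl7l1, at 233 TPM.

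**Figure D1:**
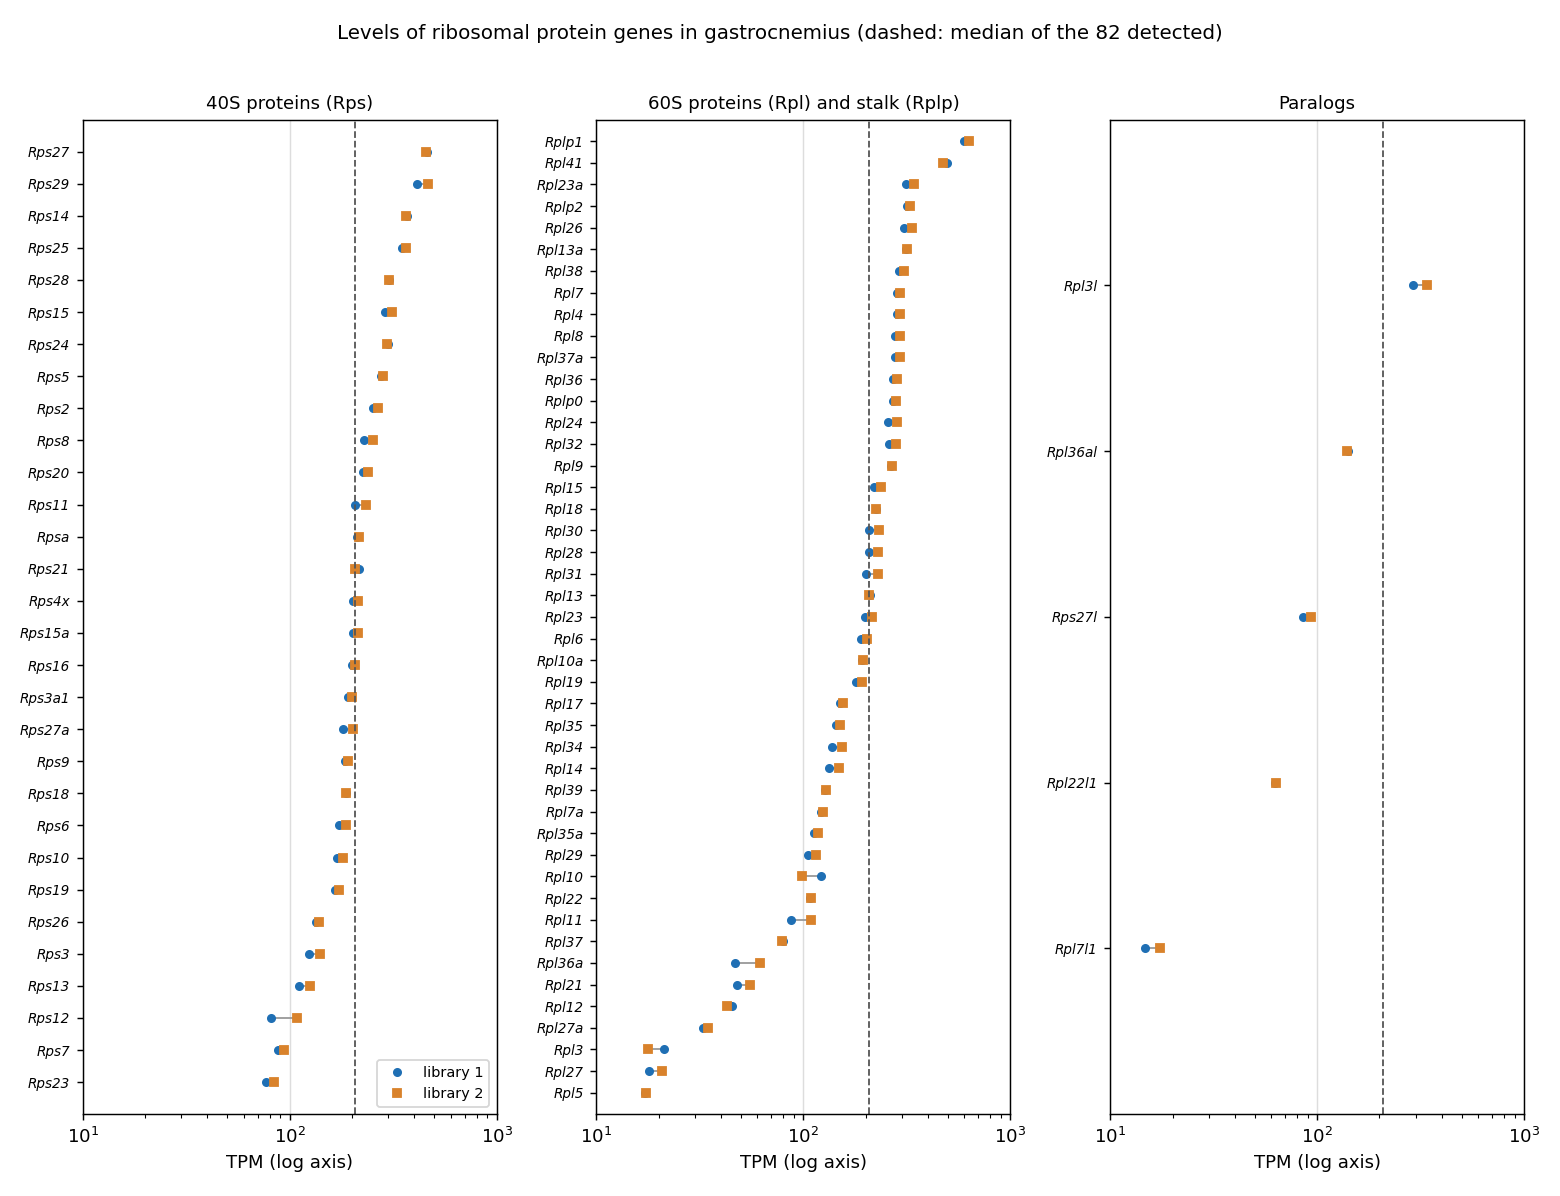
Level of 80 of the 82 detected members in library 1 (circles) and library 2 (squares), in TPM on a log axis, split into 40S proteins, 60S and stalk proteins, and paralogs; the dashed line is the median over all 82. The 40S genes end at Rps23 at 80.3 TPM, while a tail of 60S genes reaches down to Rpl5, Rpl27 and Rpl3 near 20 TPM.

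The highest member was Rplp1, a stalk protein that helps to recruit elongation factors, at 598 and 633 TPM. Its stalk partners were lower, with Rplp2 at 315 and 326 TPM and Rplp0, which anchors both, at 270 and 280 TPM. Rpl41, at 25 codons the shortest ribosomal protein in the set, stood at 495 and 474 TPM. Rps27, a zinc-binding 40S protein, had 464 and 455 TPM. Other high genes, all of the 40S subunit, were Rps29 (412 and 467 TPM), Rps14 (368 and 365) and Rps25 (350 and 366). Level did not follow the length of the protein: across the 82 detected members, Spearman's rho of coding length with mean TPM was -0.11, a description across genes that share the same libraries.

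Small-subunit genes with further roles lay near the median. Rpsa, the protein also known as the laminin receptor precursor, stood at 213 and 217 TPM. Rps6, the substrate of the S6 kinases downstream of mTOR, stood at 174 and 186 TPM. Rps27a, made as a fusion with ubiquitin, stood at 182 and 202 TPM. Genes outside the choice were in the same range: Fau had 203 ± 6.94 TPM and Rack1, a scaffold on the head of the 40S subunit, 188 ± 4.55 TPM.

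At the low end were the paralog Rpl7l1 (14.8 and 17.5 TPM), Rpl5 (17.2 and 17.3), Rpl27 (17.9 and 20.8), Rpl3 (21.2 and 17.7), Rpl27a (32.6 and 34.7) and Rpl12 (45.1 and 42.7). The 8 lowest detected members also included Rpl21 (47.8 and 55.1 TPM) and Rpl36a (46.6 and 61.5 TPM). Counting Rpl10l and Rpl39l at 0, these 2 took the last places. Leaving out the paralogs, every one of these low genes had entries elsewhere in the genome with a near-identical sequence, whose values are given with them further on. Having such entries did not set the low genes apart. At 90% identity or more over 50% or more of the coding sequence, 80 of the 84 members had them. Rpl3 was the 1 gene of this tail that stayed far below the others after those entries were added.

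Rpl3l was the dominant form of its pair. It had 291 and 341 TPM (11214 and 11299 expected counts), against 21.2 and 17.7 TPM for Rpl3 (618 and 562 counts). In each library Rpl3l was far above Rpl3. Rpl3l thus had 93.2% and 95.1% of the pair's TPM, or 94.1 ± 1.30%, and the log2 ratio of Rpl3l over Rpl3 was 4.03 ± 0.34 (SD, n = 2), a ratio of 16.5 ± 3.90. With 2 libraries an exact sign-flip test cannot go below p = 0.5, so no test is given. The second, separately made set of tables gave 283 and 328 TPM for Rpl3l and 19.5 and 18.9 TPM for Rpl3, a log2 ratio of 3.99 ± 0.18.

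Among all members Rpl3l had 12 genes above it, and among nuclear protein-coding genes it was number 134 by TPM. It stood at 1.52 ± 0.114 times the median of the other 76 detected members that are not paralogs, while Rpl3 stood at 0.0936 ± 0.0152 of that median. The sum of both genes was 312 and 359 TPM. The pair together was thus in the range of single large-subunit genes such as Rpl26 (306 and 333 TPM) and Rpl23a (312 and 344 TPM), and nearly all of it was Rpl3l.

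The pair can be told apart by sequence. Rpl3l lies on chr17:24727820-24736143 on the plus strand of mm10 and Rpl3 on chr15:80077791-80091868 on the minus strand. Their coding sequences code for 407 and 403 amino acids and are identical at 902 of 1205 aligned bases (74.9%, with 26 bases in gaps), and the longest exact run shared by the main transcripts is 22 bases. The first 240 coding bases of each, read from the GENCODE M21 transcripts, are shown because a read from either gene has to cross such differences. Capitals mark the 62 positions at which they differ, and this stretch has no gap.
Rpl3: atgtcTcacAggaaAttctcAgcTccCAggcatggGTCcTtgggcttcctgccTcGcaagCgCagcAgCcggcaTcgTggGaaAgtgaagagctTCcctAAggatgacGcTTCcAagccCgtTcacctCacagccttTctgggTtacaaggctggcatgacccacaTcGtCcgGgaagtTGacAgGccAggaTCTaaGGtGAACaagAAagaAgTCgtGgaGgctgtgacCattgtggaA
Rpl3l: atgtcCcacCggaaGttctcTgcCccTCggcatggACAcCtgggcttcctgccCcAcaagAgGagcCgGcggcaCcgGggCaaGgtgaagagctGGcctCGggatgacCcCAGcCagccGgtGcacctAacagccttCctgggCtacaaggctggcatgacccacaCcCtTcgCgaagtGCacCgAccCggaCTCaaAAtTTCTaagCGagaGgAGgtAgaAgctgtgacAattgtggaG

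Both genes were read mainly through 1 transcript. Rpl3l-202, of 1375 bases, held 98.3% and 97.6% of the Rpl3l TPM. Rpl3-201, of 1351 bases, held 59.9% of the Rpl3 TPM in library 1 and 84.8% in library 2. The difference lay in Rpl3-207, a short protein_coding entry of 460 bases with 32.6% in library 1 and 2.15% in library 2, which rested on 75.4 and 3.57 expected counts. The full-length Rpl3-201 alone was at 12.7 and 15.0 TPM, so the lower Rpl3 TPM of library 2 lay in the short entry. Rpl3-205, annotated as a target of nonsense-mediated decay, held 3.21% and 5.15%.

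**Figure D2:**
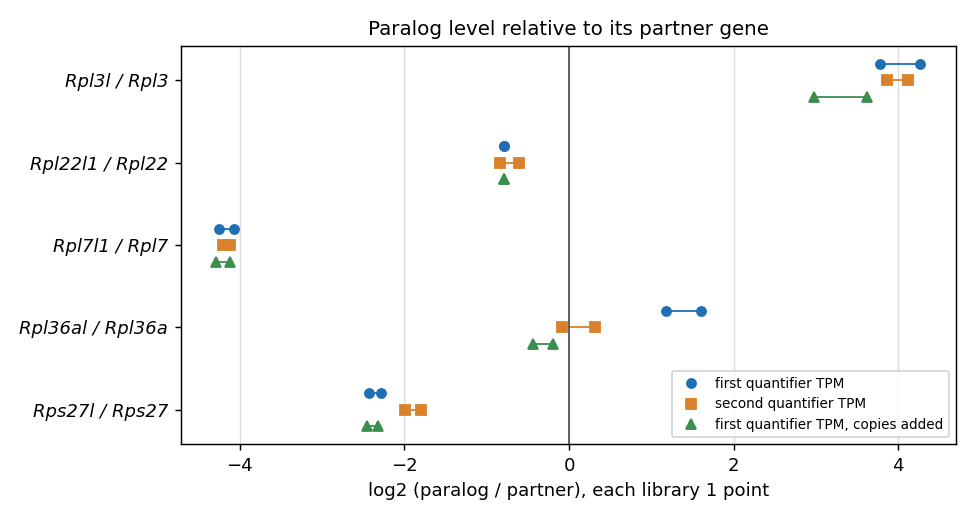
log2 ratio of each detected paralog over its partner gene, 1 point per library, from the first quantifier (circles), the second (squares) and the first with near-identical entries added to both genes (triangles). The Rpl3l points all lie between 2.98 and 4.27, those of Rpl7l1, Rps27l and Rpl22l1 are below 0, and those of Rpl36al change side.

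No other pair was turned round in this way on every scale. Rpl22l1, the paralog of the RNA-binding protein Rpl22, was at 62.7 and 63.2 TPM against 108 and 109 TPM for Rpl22, a log2 ratio of -0.79 ± 0.00376. Of that Rpl22l1 TPM, 80.5% and 81.7% was on transcripts not annotated as protein_coding, so the ratio is not one of coding transcripts. Most was on Rpl22l1-209, a processed_transcript entry at 40.8 and 48.8 TPM. The second quantifier listed Rpl22l1-209 at 0 and placed 42.3 and 49.0 TPM on the coding entry Rpl22l1-201. Rps27l was at 85.8 and 93.5 TPM against 464 and 455 TPM for Rps27, a log2 ratio of -2.36 ± 0.11. Rpl7l1, a nucleolar relative of Rpl7, was at 14.8 and 17.5 TPM against 282 and 294 TPM, a log2 ratio of -4.16 ± 0.13. These 3 paralogs were lower than their partners in both libraries and by both quantifiers.

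Rpl10l and Rpl39l, known from the testis, had 0 counts against 2589 and 1823 counts for Rpl10 and 1987 and 1739 for Rpl39. With the floor of 3 counts per library, neither paralog was detectable at this depth.

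Rpl36al was listed at 142 and 139 TPM and Rpl36a at 46.6 and 61.5 TPM, a log2 ratio of 1.39 ± 0.30 that read as a second pair with the paralog ahead. This order did not hold on every scale. The second quantifier gave a log2 ratio of 0.12 ± 0.29, with 0.32 in library 1 and -0.09 in library 2. Adding near-identical entries to both genes in the first gave -0.32 ± 0.18. Nearly all of that came from Rpl36a-ps2, which is identical to the Rpl36a coding sequence and held 771 and 737 counts. With such entries added in the second quantifier, Rpl36al was ahead again, at 184 ± 1.54 against 157 ± 15.7 TPM. Of the 5 detected pairs, Rpl3l over Rpl3 was thus the only 1 with the paralog ahead by all of these measures.

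Ribosomal protein mRNAs have left many processed copies in the mouse genome. Entries outside the members were called copies when a transcript matched a member's coding sequence at 90% identity or more over 50% or more of its length and the entry did not overlap a member. This found 1082 copies of 80 members, of which 1063 are annotated as pseudogenes and 16 as protein_coding, and 742 had no count in either library. A further 92 copies had at least 100 summed counts. In all, copies had 21.3% of the joint counts of members and copies in library 1 and 20.99% in library 2, or 21.2 ± 0.252%. Reads that fit a gene and its copy equally are divided by the quantifier, so these counts do not show that the copies were transcribed. Nor do they show that all of these reads came from the members, so values with copies added may include RNA of other genes.

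Of the 82 detected members, 39 had over 10% of their joint counts in copies, 27 over 25% and 13 over 50%. Rpl5, which with Rpl11 is known to bind the p53 regulator Mdm2, is the clearest case. Its own entry had 944 and 822 counts, while Gm15500, a pseudogene at chr7:114705217-114706235 on the minus strand that matches the whole Rpl5 coding sequence at 100% identity, had 6029 and 4865. With its copies, Rpl5 was at 233 and 219 TPM instead of 17.2 and 17.3. The first 60 coding bases of Rpl5, given here because no read within them can tell the gene from Gm15500, carry no capitals since the copy has no difference.
Rpl5: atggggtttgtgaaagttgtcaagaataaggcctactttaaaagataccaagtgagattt

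The other low 60S genes gave the same picture. Rpl27, at 17.9 and 20.8 TPM alone, was at 222 and 231 TPM with its copies, 2 of which match it at 100% identity, Gm11518 among them. Rpl12 went from 45.1 and 42.7 to 293 and 289 TPM, nearly all through the identical copy Gm10275. Rpl27a went from 32.6 and 34.7 to 223 and 223 TPM and Rpl21 from 47.8 and 55.1 to 268 and 286 TPM. The Rpl21 sum includes BC004004, an entry annotated as protein_coding with 1485 and 1455 counts, and how many of these came from Rpl21 was not tested. Rpl10, a protein that joins the large subunit late in its maturation, went from 121 and 98.1 to 342 and 343 TPM through Rpl10-ps3, an entry annotated as protein_coding with an identical coding sequence and 4476 and 4301 counts. Rps12 went from 81.6 and 109 to 278 and 281 TPM, mostly through Rps12-ps3.

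Rpl3 did not join them. Of its 21 copies only Rpl3-ps1 (chrX:13202571-13203780, plus strand, 99.8% identity) had at least 100 summed counts, at 533 and 295. With all copies added Rpl3 was at 37.0 and 27.8 TPM, below every 1 of the other 76 members that are not paralogs, the lowest of which was Rpl22 at 109 ± 0.813 TPM. Rpl3l had no copy. The log2 ratio of Rpl3l over Rpl3 with copies was 3.30 ± 0.45.

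**Figure D3:**
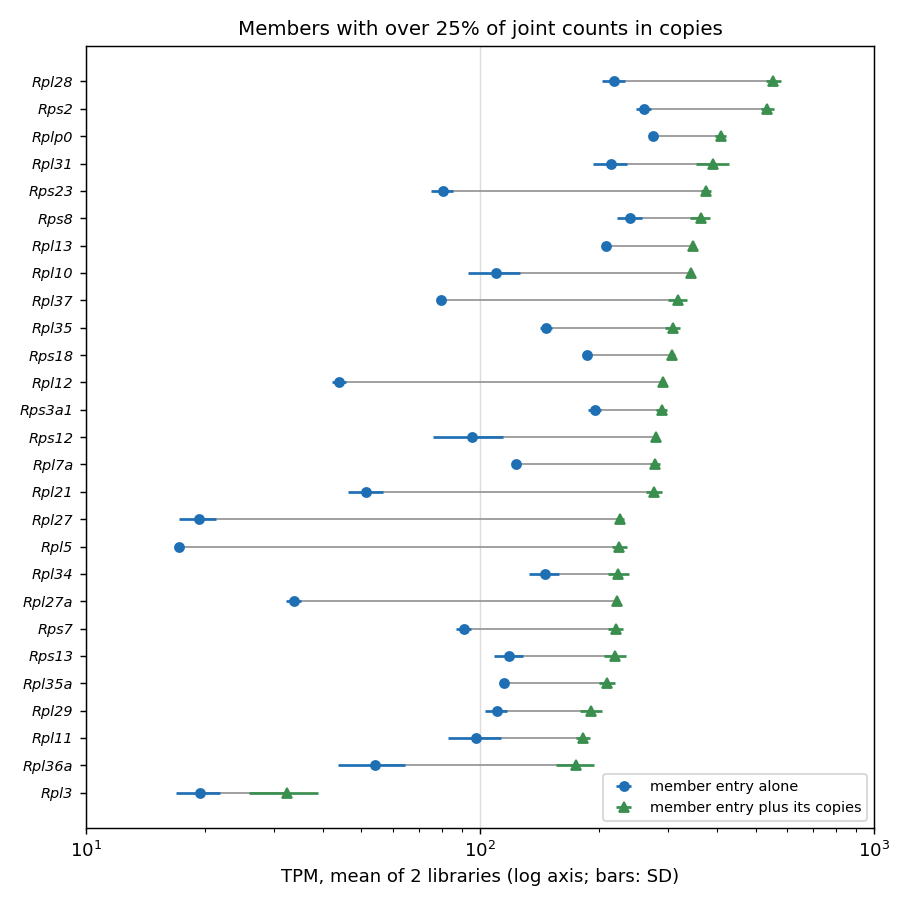
Mean TPM of the 27 members with over 25% of their joint counts in copies, for the member entry alone (circles) and with its copies added (triangles), on a log axis with bars for the SD over 2 libraries. Rpl27 and Rpl5 move from near 20 TPM to above 200 TPM, while Rpl3 ends at 32.4 TPM.

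Adding copies made the set more even. Among the 77 detected members that are not paralogs, the SD of log2 TPM was 1.03 ± 0.00255 from the entries alone and 0.60 ± 0.0190 with copies, and 60 and then 72 of them lay within 2-fold of their median. Their median with copies was 279 ± 6.17 TPM. The highest value with copies was 646 and 683 TPM, that of Rplp1. By this measure Rpl28, at 555 ± 24.4 TPM, and Rps2, at 536 ± 19.3 TPM, were among the highest genes, although their own entries were at 219 ± 15.0 and 260 ± 11.95 TPM.

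The second quantifier divided shared reads otherwise. Levels from both were within 1.5-fold for 64 of the 82 members, and Spearman's rho across these genes was 0.84. The 8 members that differed over 2-fold were all higher in the second: Rpl27 (19.3 ± 2.06 against 116 ± 4.11 TPM), Rpl5 (17.2 ± 0.0778 against 69.9 ± 2.12), Rpl27a (33.6 ± 1.46 against 124 ± 2.53), Rpl10 (110 ± 16.5 against 318 ± 6.56), Rpl37 (79.5 ± 0.721 against 197 ± 1.39), Rps23 (80.3 ± 5.28 against 184 ± 18.1), Rps12 (95.3 ± 19.3 against 212 ± 3.55) and Rpl21 (51.4 ± 5.18 against 103 ± 6.12). With copies added in both sets of tables, 0 members differed over 2-fold. Rpl3 and Rpl3l were near the line of equal values in either case.

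**Figure D4:**
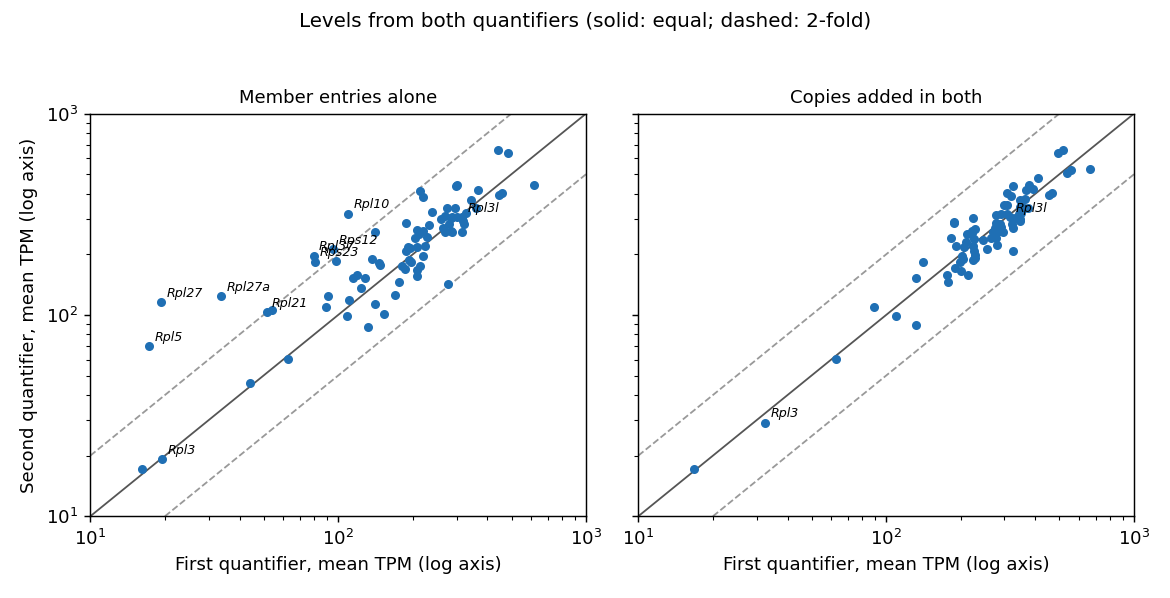
Mean TPM of the 82 detected members from the first quantifier (x axis) and the second (y axis), both log axes, for member entries alone (left) and with copies added (right); dashed lines mark 2-fold. The 8 named members above the upper dashed line at left fall inside the lines at right.

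Part of the members' TPM was assigned to transcripts not annotated as protein_coding, 16.5% in library 1 and 16.9% in library 2. For 14 members this was the larger part in both libraries. Large shares were found in Rps16 (98.4% and 99.0%), Rps20 (97.4% and 97.3%), Rpl35 (97.2% and 96.7%), Rpsa (92.9% and 91.9%) and Rps26 (89.2% and 87.9%). In Rps20 the TPM was on Rps20-201, a retained_intron entry of 582 bases, and in Rpl35 on Rpl35-203, a processed_transcript entry of 541 bases. The assignment was not stable between quantifiers for every gene. In Rpsa the first placed 175 and 177 TPM on Rpsa-206, annotated for nonsense-mediated decay, and 6.35 and 8.42 TPM on the coding entry Rpsa-204. The second placed 90.3 and 94.0 TPM on Rpsa-206 and 73.2 and 78.7 TPM on Rpsa-204. These classes are labels of the annotation, and whether such RNAs were translated was not tested.

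Levels in the libraries were close. Ratios were taken on expected counts scaled by TMM, and a gene was called apart at an absolute log2 ratio of at least 0.5, with at least 1 CPM in both libraries and at least 100 summed counts. Of 11186 genes that passed these minimums, 619 (5.53%) were apart, and of the 82 members that passed, 0 were. The SD of the log2 ratio was 0.10 over members and 0.25 over all genes, but the median absolute log2 ratio was similar, at 0.107 and 0.116. The comparison genes reach down to 100 summed counts, where counting error is larger, and genes of matched counts were not compared. No p-value is attached, since 2 libraries of 1 group give no test.

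Small as these ratios were, most members leaned the same way. Over members, the log2 ratio of library 2 over library 1 had a median of -0.10, against 0.00057 over all genes, and 71 of 82 members (86.6%) were lower in library 2, against 49.8% of all genes. By the second quantifier 77 of 82 were lower. On deposited TPM the sign turned, with a median of 0.07 and 11 of 82 members lower, because that scale moved the median of all genes to 0.17. Relative to the median of all genes, the members stood at -0.10 on TMM-scaled counts and at -0.10 on TPM. In copy-added counts 79 of 82 were lower, and the SD over members was 0.08.

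The lowest ratios were those of Rpl10 at -0.47 (2589 and 1823 counts; 95% exact Clopper-Pearson interval -0.56 to -0.39), Rpl12 at -0.29, Rps21 at -0.24, Rpl41 at -0.24 and Rps24 at -0.22. The highest were Rps12 at 0.24 (1189 and 1372 counts; interval 0.13 to 0.35), Rpl36a at 0.23, Rpl7l1 at 0.17, Rpl11 at 0.13 and Rpl27 at 0.05. Intervals cover counting error only. Several of these genes share reads with copies, and with copies added Rpl10 was at -0.17, Rps12 at -0.15 and Rpl11 at -0.06. The lowest was then Rpl3 at -0.39 and the highest Rpl7l1 at 0.15. Rpl3l was at 0.04, 1 of 11 members that were not lower in library 2.

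**Figure D5:**
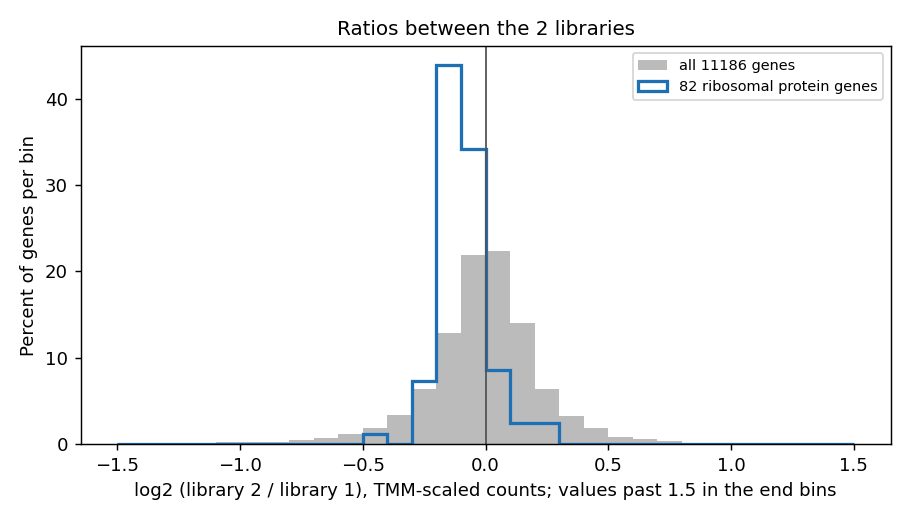
Distribution of the log2 ratio of library 2 over library 1 for all 11186 genes past the minimums (grey) and for the 82 members (line), as percent of genes per bin of TMM-scaled counts. The members form a narrow peak just below 0, with a median of -0.10.

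Genes that work with the ribosome showed the same lean in part. Among 17 translation factors and other mRNAs with a pyrimidine start, all detected with a median of 102 ± 3.62 TPM, 16 were lower in library 2 with a median log2 ratio of -0.09. The exception was Eef1a2, the elongation factor form of mature muscle, at 714 and 851 TPM and a log2 ratio of 0.08, while its partner Eef1a1 was at 170 and 163 TPM and -0.22. Of 24 ribosome biogenesis genes, at a median of 10.2 ± 0.965 TPM, 15 were lower with a median of -0.03. Of 13 regulators of ribosomal protein mRNA translation, at 16.9 ± 1.07 TPM, 7 were lower with a median of -0.0041. Of 77 mitochondrial ribosomal protein genes that passed the minimums, 34 were lower with a median of 0.01, and the median level of that set was 21.6 ± 1.92 TPM. Of all genes, 49.8% were lower, and the other lists were nearer to that share than the translation factors were. None of these 4 lists had a gene apart, against 5.53% of all genes. At that share, short lists would hold few.

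Markers of most other cell types leaned lower in library 2, though not every marker did. The 4 fibroblast markers had a median log2 ratio of -0.17 with 3 of 4 lower, and Col1a1 was higher at 0.49. Their summed level was 351 and 355 TPM. All 3 macrophage markers that passed were lower with a median of -0.35 (summed 21.4 and 19.7 TPM), and C1qc was apart at -0.51 (99 and 68 counts). All 3 Schwann cell markers were lower with a median of -0.31 (24.1 and 23.7 TPM), as were 3 of 4 endothelial markers with -0.11 (34.7 and 39.2 TPM), both erythroid markers with -0.15 (164 and 165 TPM) and 2 of 3 adipocyte markers with -0.01 (112 and 106 TPM). The 6 muscle fibre markers had a median of 0.03 with 1 lower (58567 and 67482 TPM). Cardiac markers summed to 60.4 and 79.0 TPM, nearly all Myh6, which had a log2 ratio of 0.23. Lymphocyte markers summed to 0.37 and 0.42 TPM, with Cd3e at 0 in library 1 and Cd79a at 0 in library 2. The part of these cells in the members' ratio was not tested.

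The genes also share features of sequence. Start-site windows of RefSeq on GRCm38.p6, the build called mm10, run from 250 bases before to 50 bases after a start and were present for 64 members. A run of at least 7 pyrimidines on the coding strand within 10 bases of the start was found in 24 of these 64 (37.5%), against 12.2% of all 32851 windows. The letters CCGGAAG on either strand, within the whole window of 300 bases, were in 24 of 64 (37.5%) against 8.86% of windows, and GGGCGG in 60.9% against 35.7%. TATAAA between 40 and 20 bases before the start was in 1.56% against 2.31%. The start of the window lay up to 769 bases (Rps10) from the GENCODE start of the member's main coding transcript. A run at the 5′ end of the mRNA can therefore lie outside the stretch searched, and the share is not that of mRNAs with such a run. A match describes letters only, and no match says only that they were not in this window.

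The 30 bases around the start, 20 before and 10 after, are shown for Rps6 and Rps27, which have long runs, for the paralogs Rps27l and Rpl22l1, and for Rpl3l. Capitals mark the longest pyrimidine run within 10 bases of the start.
Rps6, chr4:86857358-86857387, minus strand: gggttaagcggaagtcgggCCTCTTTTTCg
Rps27, chr3:90213639-90213668, minus strand: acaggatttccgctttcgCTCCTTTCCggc
Rps27l, chr9:66946066-66946095, plus strand: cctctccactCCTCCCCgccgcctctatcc
Rpl22l1, chr3:28805488-28805517, plus strand: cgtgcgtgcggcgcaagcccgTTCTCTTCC
Rpl3l, chr17:24727806-24727835, plus strand: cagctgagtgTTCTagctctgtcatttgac
Within 10 bases of the start, the runs are of 10 bases in Rps6, 9 in Rps27, 7 in Rps27l and 9 in Rpl22l1, and of 4 in Rpl3l. The run of Rps27l continues upstream of that stretch, and that of Rpl22l1 reaches its last base. These starts lay 45 bases from the GENCODE start in Rps6, 72 in Rpl22l1, 6 in Rpl3l, 3 in Rps27 and 0 in Rps27l. Rpl3 was not among the 64 members with a window. The letters CAGCTG, found in 4 of 64 members' windows (6.25%) and 16.3% of all windows, are in that of Rpl3l, upstream of its start.

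Many members also carry small nucleolar RNA genes, which guide the modification of ribosomal RNA, inside their own gene on the same strand. Such a gene lay inside 30 of 84 members (35.7%), 58 in all and up to 5 in Rpl4, against 205 of 9806 detected protein-coding genes (2.09%). Hosts and other members had similar levels: the 30 hosts had a median of 200 ± 7.45 TPM and the other 52 detected members 208 ± 7.58 TPM. The members were spread over 19 chromosomes, with 14 on chromosome 7, 8 on chromosome 17, 4 on X and 0 on Y.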

How the data were processed

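Column names in the file headers are those of RSEM for the gene tables and for 1 set of transcript tables (first quantifier), and those of kallisto for the other set (second quantifier). The expected counts and TPM were computed by the authors, on mm10 with GENCODE M21 per the deposited read-me. The programs used are not named in the sources used here. TPM in the deposited tables is relative to all entries, spike-ins included.

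Levels used deposited TPM, with the second quantifier summed per gene. Ratios used expected counts rounded to whole numbers, scaled by TMM in edgeR 4.0.16 (R 4.3.3) and tested on simulated data, with 0.5 added to each count. Copies were found with BLAST 2.17.0 against coding sequences cut from GENCODE M21 and the best match was kept. Sequences were aligned with Biopython 1.88. Tables were handled in Python 3.11.15 with pandas 2.3.3. Spike-ins held 0.479% and 0.505% of counts. The effect of CAST alleles on assignment to mm10 was not tested.

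Named genes were the paralog pairs, the stalk genes, Rpsa, Rps6, Rps27a, the 8 highest and 8 lowest by mean TPM, the 5 highest and 5 lowest ratios, those over 2-fold apart between quantifiers and the 6 with the largest non-coding share; some of these are not reported here; copies and other genes were named after their values were seen. Members, lists and rules were chosen with earlier results of these data known. Alternatives covered scaling, filters, quantifier, length, transcripts, members, copies and leaving out each library.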

Additional observations from a re-analysis of the deposited data

Results flagged for a closer look

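A set of 4 entries carries a ribosomal protein symbol but no protein_coding transcript, so they lay outside the 84 members, and each had more than 3 counts in both libraries. Rps3a2, a processed pseudogene that matches Rps3a1, was at 91.8 ± 1.46 TPM (1910 and 1690 counts) and at 66.4 TPM by the second quantifier. Rps12l1, a processed pseudogene entry, was at 29.9 ± 15.7 TPM, with 171 counts in library 1 and 322 in library 2, and was listed at 0 by the second quantifier. Rps4l was at 0.475 ± 0.332 TPM (5.00 and 14.0 counts) and Rpl6l at 0.33 ± 0.113 TPM (5.94 and 8.39 counts). How far their counts are reads shared with the parent genes was not tested.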

How the results depend on the processing

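Of 52 alternative values, 31 were counted as the same, 19 moved and 2 reversed. The limit was the SD over the 2 libraries, or 1.5-fold for counts of genes. For the median ratio between libraries it was the 95% counting error of the members' summed counts. Leaving out 1 library could not move a value averaged over both, since each library lies within the SD of their mean. Likewise, 0 genes apart at 0.5 fixed 0 at the wider limit of 1. The share of nuclear protein-coding TPM (4.10%) was 1.73% of all gene TPM, 4.57% by the second quantifier, 1.02% on expected counts, 4.68% with entries named -ps and 5.38% with all copies, and 3.94% to 4.27% leaving out 1 library. The log2 ratio of Rpl3l over Rpl3 fell to 3.30 with Rpl3 copies and was 3.78 to 4.27 leaving out 1 library. The median log2 ratio between libraries (-0.10) reversed to 0.075 on deposited TPM and was -0.17 on spike-in counts and -0.091 on total counts. The median TPM of members (203) was 218 by the second quantifier, 209 per annotated length, 177 from protein_coding transcripts alone and 277 with copies, and 200 to 207 leaving out 1 library. The SD of log2 TPM (1.09) was 0.92 by the second quantifier, 1.06 per annotated length, 1.03 without paralogs, 1.08 as log2(TPM + 1) and 0.79 with copies, and 1.09 to 1.10 leaving out 1 library. The log2 ratio of 60S over 40S medians (-0.04) reversed to 0.0063 by the second quantifier, was -0.020 without paralogs and -0.0042 with copies, and ran from -0.05 to -0.03 leaving out 1 library. Detection stayed at 82 members and genes apart at 0 in every alternative listed for them. Adding copies was chosen after seeing the data, except for Rpl3. Under spike-in scaling, which was not listed for that count, Rpl10 passed the limit at -0.54. No paired analysis was possible because both libraries belong to 1 group. Depth limits the statement on Rpl10l and Rpl39l to 3 counts per library.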
